A study of Mus musculus with 4 samples.

Results

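The 4 Hox clusters of the mouse hold 39 protein-coding genes out of 21883 on chromosomes 1 to 19, X and Y, and their FOXL2 peaks in the fetal ovary are described here. Members were the RefSeq protein-coding genes whose symbol is Hox followed by a cluster letter, a to d, and a number. The peaks taken were those whose centre lay inside a cluster or within 100 kb of its ends, which gave 27 of the 11438 peaks in the deposited list. Of these, 20 lay between the outer borders of the first and last Hox gene of a cluster and 7 lay in the flanks. FOXL2, the forkhead factor that marks future granulosa cells of the ovary, was mapped by chromatin immunoprecipitation and sequencing (ChIP-seq) in ovaries of CD1 embryos (XX gonads) at E14.5. There were 2 samples of FOXL2 ChIP and 2 of input, that is chromatin with no antibody step, and each ChIP used a pool of 80 to 100 ovaries freed of the mesonephros. The ovaries were taken whole, so the peaks cannot be assigned to a cell type, and a peak list holds no expression with which to check the tissue. One list of positions stands for both ChIP samples and carries no height, score or read count, so there is no spread between replicates, depth is unknown, and no difference below was tested. The 95% intervals, exact Poisson for counts and exact binomial for shares, cover counting error only.

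Hox genes encode homeodomain transcription factors that give cells of the embryo their position along the head-to-tail axis. Within a cluster the genes are read from the same strand and numbered by paralogue group, and low-numbered genes at the 3' end act earlier and nearer the head than high-numbered genes at the 5' end. Genes of the 5' end, Hoxa10 and Hoxa11 among them, are known for patterning the female reproductive tract, which develops next to the ovary from the Müllerian duct.

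Of the Hox promoters in the RefSeq table, those of Hoxd1 and Hoxd9 overlapped a peak, and their sequences are shown because they are the places where the binding list and a Hox promoter sequence meet. Each window runs from 250 bases before to 50 bases after a start, on build GRCm38.p6, which is mm10, and on the plus strand, and the start is base 251. Hoxd1 lies at chr2:74762730-74763029 and Hoxd9 at chr2:74697513-74697812. Capitals mark the bases under the FOXL2 peak, 54 in Hoxd1 and 136 in Hoxd9.
Hoxd1: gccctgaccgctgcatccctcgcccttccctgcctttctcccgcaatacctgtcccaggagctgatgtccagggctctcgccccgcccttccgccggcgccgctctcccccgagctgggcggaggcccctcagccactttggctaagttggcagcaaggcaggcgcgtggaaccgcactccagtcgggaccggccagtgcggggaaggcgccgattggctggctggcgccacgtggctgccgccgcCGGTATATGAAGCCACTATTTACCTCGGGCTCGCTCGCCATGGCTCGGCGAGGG
Hoxd9: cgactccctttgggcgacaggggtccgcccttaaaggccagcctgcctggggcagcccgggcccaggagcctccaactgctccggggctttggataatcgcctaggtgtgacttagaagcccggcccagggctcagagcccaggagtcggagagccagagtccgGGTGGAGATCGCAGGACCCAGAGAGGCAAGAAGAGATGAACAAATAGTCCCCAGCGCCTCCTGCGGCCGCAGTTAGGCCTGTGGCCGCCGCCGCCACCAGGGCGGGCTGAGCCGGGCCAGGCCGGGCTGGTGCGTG

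Several short motifs were searched on both strands of these windows, the forkhead cores TAAACA and GTAAACA (the second contains the first), the nuclear receptor motif CAAGGTCA, the Hox and PBX motif TGATNNAT and the GC box GGGCGG. In both printed windows GGGCGG was the motif found, counting its other-strand form CCGCCC. In Hoxd9 a copy lay under the peak and another, as CCGCCC, lay outside it. In Hoxd1 no copy lay under the peak. The table held 24 windows for 22 Hox genes and 21262 for all protein-coding genes. TAAACA was present in 3 Hox windows (12.5%), against 11.5% of all windows. GTAAACA was in 0 Hox windows, against 3.01% of all. CAAGGTCA was in 0 Hox windows, against 1.34% of all. These counts say which letters are in the windows and nothing of whether the factor binds there. TGATNNAT was in 4 Hox windows (16.7%), against 7.45% of all windows. GGGCGG was in 10 Hox windows (41.7%), against 46.2% of all windows and 72.7% of the 4731 windows that overlapped a peak. Median GC content was 57.7% in Hox windows and 56.3% in all windows, so Hox promoters were near the usual composition. A peak overlapped 2 Hox windows (8.33%), against 22.3% of all windows. The shares of the 24 Hox windows rest on few windows and carry no interval. None of these differences is therefore taken as a trait of Hox promoters.

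The Hox clusters were dense in peaks per length and close to the genome in peaks per gene, though the 2 per-gene figures count unlike peaks. The 20 peaks inside 492.1 kb of cluster gave 40.6 peaks per Mb (interval 24.8 to 62.8), 9.6 times the 4.23 per Mb of the genome. The clusters are packed with genes to nearly the same degree, 79.3 protein-coding genes per Mb against 8.1 in the genome, a ratio of 9.79. Per protein-coding gene there were 0.513 peaks in the clusters (interval 0.313 to 0.792) and 0.523 in the genome. The genome figure divides every peak, those far from genes included, by all genes. The cluster figure leaves out the 7 flank peaks, so the 2 are not like measures. The clusters held 0.175% of the peaks and 0.178% of the genes on 0.0182% of the span. The 7 flank peaks came to 8.75 per Mb (interval 3.52 to 18.03), 2.07 times the genome. Other gene-dense places gave a further yardstick, 120 tiles of 100 kb with at least 8 protein-coding genes. Tiles followed a fixed grid that cut through each Hox cluster, and 0 Hox tiles reached that number. In the 120 tiles the median was 2 peaks (quartiles 1 and 3), and 15.0% held 5 or more. Those tiles had 0.24 peaks per gene, in windows unlike the clusters, which were trimmed to their outer gene borders. The 16 gaps between adjacent centres inside the clusters had a median of 14.14 kb (5.52 to 45.53 kb), against 78.4 kb over all peaks. No gap inside a cluster could exceed its length, whereas gaps over all peaks ran to 12195.9 kb. The shorter median thus restates the density per Mb in part.

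**Figure D1:**
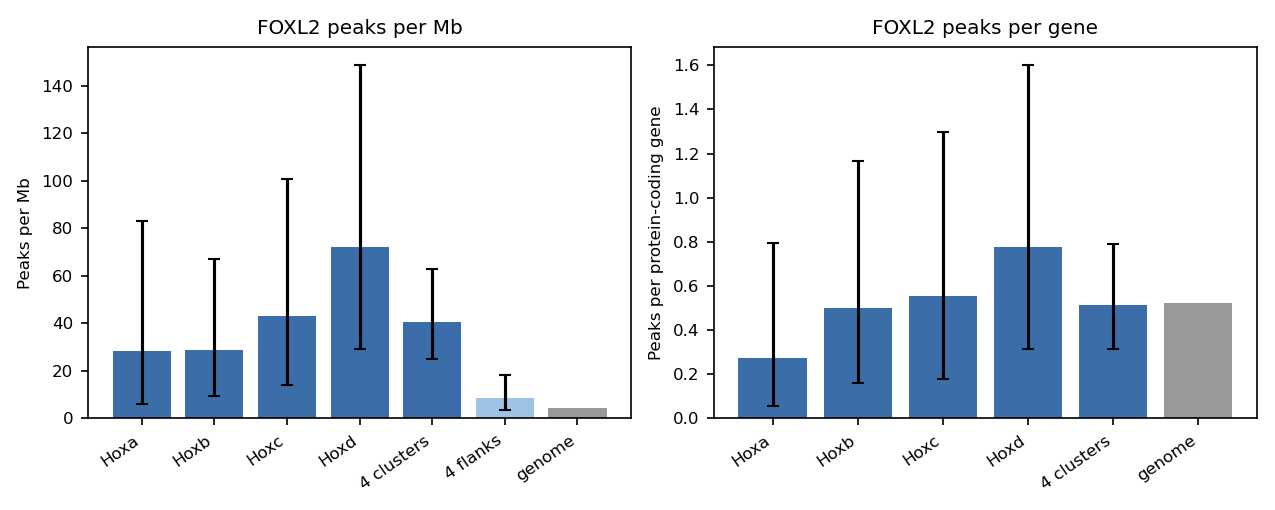
Peaks per Mb and peaks per protein-coding gene in each Hox cluster, in all 4 together and in the genome, with exact 95% Poisson intervals. All 4 clusters together stand at 40.6 peaks per Mb against 4.23 in the genome, but at 0.513 peaks per gene against 0.523. Peaks per gene in the genome count every peak, those far from genes included, whereas the clusters' count leaves out flank peaks.

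The clusters ranged from 3 peaks inside Hoxa to 7 inside Hoxd, and their counting intervals overlapped. Hoxa (chromosome 6, 11 genes) held 3 peaks (interval 0.62 to 8.77), or 28.4 per Mb and 0.273 per gene. Hoxb (chr11:96194316-96368254, 10 genes) held 5 peaks (1.62 to 11.67), or 28.7 per Mb and 0.5 per gene. Hoxc (chr15:102921131-103036856, 9 genes) held 5 peaks, or 43.2 per Mb and 0.556 per gene. Hoxd (chr2:74668225-74765142, 9 genes) held 7 peaks (2.81 to 14.42), or 72.2 per Mb and 0.778 per gene. Hoxd was thus the shortest cluster, at 96.9 kb, with the most peaks, and Hoxb the longest, at 173.9 kb. The longest stretches without a peak centre also differed. In Hoxb 92.8 kb at the 5' end had none, in Hoxc 45.5 kb lay between neighbouring peaks, and in Hoxd the longest gap was 29.1 kb. Intervals were also measured between neighbouring starts, where the 2 starts of Hoxa10 and the 2 of Hoxd11 each bounded an empty interval within 1 gene. In all, 16 of 37 intervals held a peak, 3 of 11 in Hoxa, 5 of 9 in Hoxb, 4 of 8 in Hoxc and 4 of 9 in Hoxd. Among these, 2 intervals held more than 1 peak, Hoxc5 to Hoxc4 with 2 and Hoxd4 to Hoxd1 with 3. The longest empty interval was the 77.0 kb between Hoxb13 and Hoxb9, followed by 26.9 kb between Hoxa4 and Hoxa2.

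**Figure D2:**
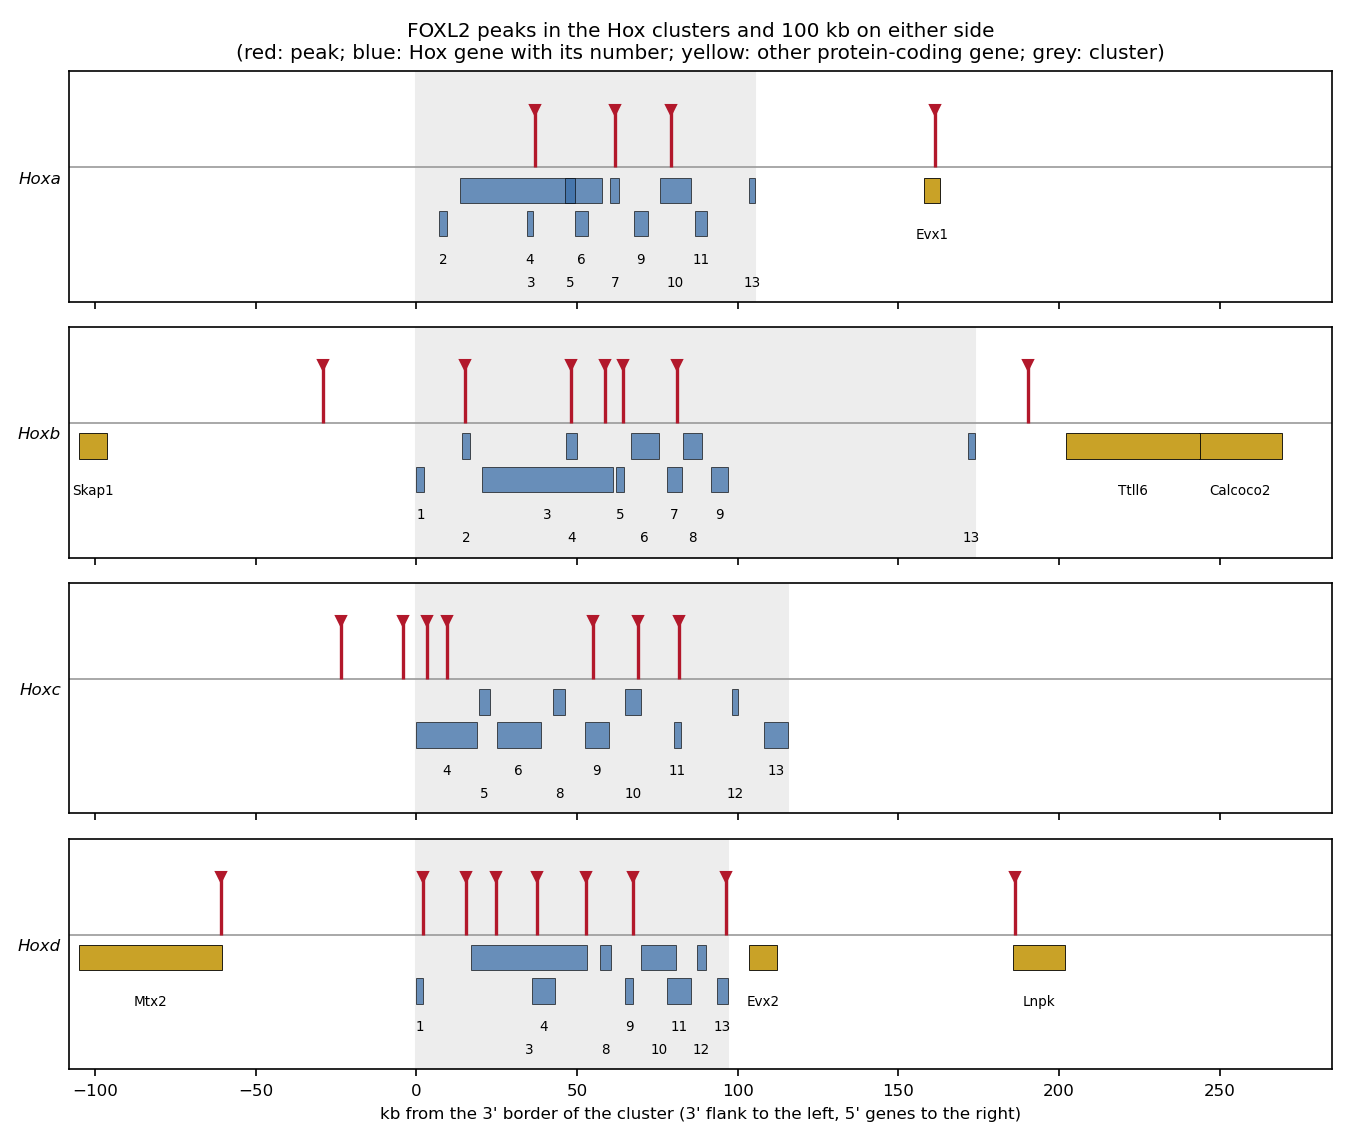
Positions of the 27 peaks (red) and of the protein-coding genes (blue for Hox genes with their number, yellow for others) along each cluster, drawn from the 3' end, with 100 kb on either side, in kb. Hoxd carries 7 peaks spread from Hoxd1 to Hoxd13, and Hoxb carries 0 from Hoxb9 to Hoxb13.

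In Hoxa the 3 peaks lay at Hoxa4, Hoxa7 and Hoxa10. The peak at chr6:52191978-52192277 was centred 424 bp upstream of Hoxa4, inside the long RefSeq model of Hoxa3, a gene needed for the thymus and parathyroid, and inside the noncoding gene LOC115490409. The peak at chr6:52216938-52217237 lay within Hoxa7, 1486 bp downstream of its start. The peak at chr6:52234375-52234674 lay within Hoxa10, a gene of uterine development, 415 bp downstream of the inner of its 2 listed starts. The window of 10 kb around these peaks also took in Hoxa5, needed for lung and trachea, Hoxa6, Hoxa9, known for its part in blood progenitors, and Hoxa11, a gene of the uterus and limb. None of these 4 genes had a peak centre in its body, and the distances ran from 6010 bp for Hoxa9 to 9627 bp for Hoxa5. Hoxa2, a hindbrain and branchial arch gene, lay 27296 bp from the nearest peak, and Hoxa13, the gene of digits and of the lower reproductive tract, 24329 bp.

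In Hoxb the 5 peaks fell between Hoxb2 and Hoxb7. Hoxb2, a hindbrain gene, held the peak at chr11:96353071-96353370, 1588 bp downstream of its start. Hoxb4, known for its use in expanding blood stem cells, held the peak at chr11:96320012-96320311, 1894 bp downstream of its start and also within the long model of Hoxb3. Hoxb3 held a second one at chr11:96309361-96309660, 2409 bp downstream of its start. The 3 peaks followed one another along the 3' part of the cluster, and Hoxb3, whose RefSeq model encloses Hoxb4, was the gene with a pair of them. Hoxb5 held the peak at chr11:96303840-96304139, 477 bp downstream of its start, which also overlapped the antisense gene Hoxb5os. Hoxb7 held the peak at chr11:96286950-96287249, 1495 bp downstream of its start. Hoxb6 and Hoxb8 had no peak in their bodies and lay 2420 and 1774 bp from one. Hoxb1, the gene of the hindbrain segment that forms the facial nerve nucleus, Hoxb9 and Hoxb13, known from the prostate, lay 12526, 10504 and 16382 bp from the nearest peak.

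In Hoxc the 5 peaks formed a 3' pair at Hoxc4 and a 5' trio at Hoxc9, Hoxc10 and Hoxc11. Hoxc4 held the peaks at chr15:103033264-103033563, 982 bp upstream of its listed start, and chr15:103027277-103027576, 6969 bp upstream of it. Both lay within its longer gene model and within the noncoding gene Gm30528. Hoxc9, a gene of thoracic identity, held the peak at chr15:102981745-102982044, 4862 bp downstream of its start. Hoxc10, a gene of lumbar identity, held the one at chr15:102967884-102968183, 1237 bp downstream. Hoxc11 held the one at chr15:102954883-102955182, 506 bp downstream. The trio thus stepped along 3 neighbouring genes, while Hoxc5, Hoxc6 and Hoxc8 between it and the pair had no peak in their bodies. Hoxc5 and Hoxc8 were 9997 and 8645 bp from a peak. Hoxc6 was 15544 bp away, Hoxc12 16423 bp and Hoxc13, a gene of hair and nail, 26218 bp.

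In Hoxd 7 peaks lay from one end of the cluster to the other. Hoxd1 held the peak at chr2:74762976-74763275, 145 bp downstream of the start shown above. The peak at chr2:74749579-74749878 was the one of the 20 outside every Hox gene body, 1457 bp beyond the end of Hoxd3 and within the noncoding gene Haglr. Hoxd3 held the peak at chr2:74740348-74740647, deep inside its long model, and another at chr2:74712089-74712388, 245 bp downstream of its start and within Hoxd3os1. The Hoxd3 model encloses Hoxd4, so its interior holds peaks of both genes. Hoxd4, a gene of neck vertebrae, held the peak at chr2:74727518-74727817, 5689 bp downstream of its start. Hoxd9 held the peak at chr2:74697677-74697976, 63 bp downstream of its start, the shortest distance in the 4 clusters. Hoxd13, the gene of digits whose human mutations cause synpolydactyly, held the peak at chr2:74668545-74668844, 469 bp downstream of its start. Hoxd8, Hoxd10 and Hoxd12 lay 4305, 2720 and 6319 bp from a peak, and Hoxd11, which acts with Hoxa11 in forearm and kidney, lay 10810 bp from one.

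Counted by gene, 29 of the 39 Hox genes (74.4%, interval 57.9 to 87.0) had a peak centre in their body or within 10 kb of either end, against 49.6% of all 21883 protein-coding genes. In a packed cluster 1 peak falls in the windows of several genes, and counts that give each peak fewer genes lay closer to the background. With a window of 1 kb, 18 Hox genes (46.2%) had a peak, against 42.5% of all genes. With the body alone, 17 Hox genes (43.6%, interval 27.8 to 60.4) held a peak, against 36.2% of all genes. With each peak given to the nearest gene body within 10 kb alone, 17 Hox genes (43.6%) had one, against 39% of all genes. Of the 29 genes, 17 had 1 peak, 8 had 2, 2 had 3 and 2 had 4, and 12 owed their peak to the 10 kb window with none in the body. Hoxb3 and Hoxd3, both with long models, were the genes with 4. Hox genes are short, and among genes of 2 to 10 kb a peak lay in the body of 13 of 32 Hox genes (40.6%, interval 23.7 to 59.4), against 23.4% of 5342 protein-coding genes. Just inside the 10 kb limit stood Hoxc5 at 9997 bp and Hoxa5 at 9627 bp, and just outside it Hoxb9 at 10504 bp and Hoxd11 at 10810 bp. Outside the window were Hoxa2, Hoxa13, Hoxb1, Hoxb9, Hoxb13, Hoxc6, Hoxc12, Hoxc13 and Hoxd11, with the distances given above. By cluster, 8 of 11 Hoxa genes, 7 of 10 Hoxb genes, 6 of 9 Hoxc genes and 8 of 9 Hoxd genes were within 10 kb of a peak. In their bodies 3 of 11 Hoxa genes, 5 of 10 Hoxb genes, 4 of 9 Hoxc genes and 5 of 9 Hoxd genes held one.

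Paralogue groups 1 to 8, the 3' genes, carried more peaks per gene than groups 9 to 13, the 5' genes, but the intervals overlapped. Assigned to the nearest gene body, 14 of the 20 peaks (70.0%, interval 45.7 to 88.1) belonged to the 23 genes of groups 1 to 8, which are 59.0% of the Hox genes, and 6 to the 16 genes of groups 9 to 13. That gave 0.609 peaks per gene at the 3' end (interval 0.333 to 1.021) and 0.375 at the 5' end (0.138 to 0.816). By length, 276.3 kb of 3' cluster had 5.07 peaks per 100 kb (2.77 to 8.5), and 215.8 kb of 5' cluster had 2.78 (1.02 to 6.05). Of that 5' length, 82.3 kb lay in Hoxb and held 0 peaks, against 5.46 per 100 kb in its 3' part. Outside Hoxb the contrast by length was smaller or reversed. Hoxa had 2.96 per 100 kb in its 3' part and 2.64 in its 5' part, and Hoxd 7.82 and 6.07. In Hoxc the 5' part was the denser, with 3 peaks on 62.7 kb against 2 on 53.1 kb. The outer groups stood further apart, with 11 peaks on the 12 genes of groups 1 to 4 and 4 on the 12 genes of groups 10 to 13. The split was not alike in each cluster. Hoxa had 2 peaks at 3' genes and 1 at 5' genes, Hoxb had 5 and 0, Hoxd had 5 and 2, and Hoxc had 2 and 3. With Hoxb left out, an alternative added after the data were seen, 3' genes had 60.0% of the peaks and were 51.7% of the remaining 29 genes, and with Hoxc left out they had 80.0% and were 63.3% of 30 genes. Within 10 kb of a peak were 19 of 23 3' genes (82.6%, interval 61.2 to 95) and 10 of 16 5' genes (62.5%, interval 35.4 to 84.8). Within the 3' genes, the central groups 4 to 8 had 14 of 15 genes within 10 kb (93.3%, interval 68.1 to 99.8) and the anterior groups 1 to 3 had 5 of 8 (62.5%). A peak in the body was found in 11 of 23 3' genes (47.8%) and in 6 of 16 5' genes (37.5%). By that count the order within the 3' genes turned round, with 6 of 15 central genes (40.0%, interval 16.3 to 67.7) and 5 of 8 anterior genes (62.5%, interval 24.5 to 91.5).

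Ordered by the nearest gene start, paralogue group 4 had the most peaks, 6, and each of its 4 genes, Hoxa4, Hoxb4, Hoxc4 and Hoxd4, was the nearest start to at least 1. The nearest start was not always near. A Hoxc4 peak lay 6969 bp away, and the Hoxd4 peaks lay 5689 and 18519 bp away, the latter inside Hoxd3 and beyond the end of Hoxd4. Group 4 also borders long intervals between starts, 41.0 kb from Hoxd4 to Hoxd1 and 33.4 kb from Hoxb4 to Hoxb2. Group 7 was covered as well, with 1 peak each at Hoxa7 and Hoxb7, its 2 genes. Groups 6, 8 and 12 had 0 peaks by this measure and by nearest body. By nearest body group 3 led with 5 peaks and group 4 had 4, since the long models of the group 3 genes take in neighbouring peaks. In group 13, at the 5' end, Hoxd13 had a peak in its body, and Hoxa13, Hoxb13 and Hoxc13 had none within 10 kb.

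**Figure D3:**
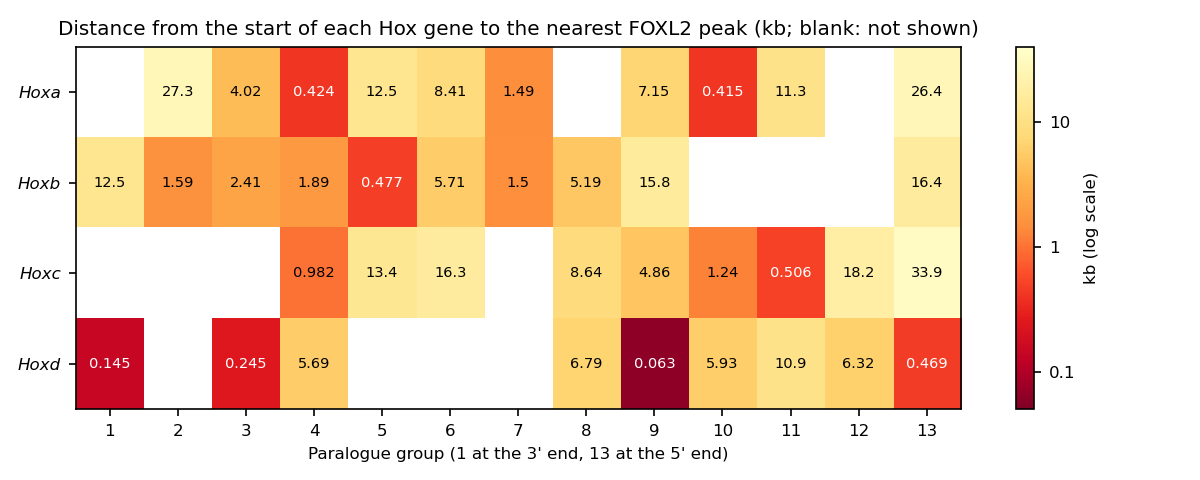
Distance in kb from the start of each Hox gene to the nearest peak centre, by cluster (rows) and paralogue group (columns), with empty cells where no gene is shown. Group 4 has short distances in Hoxa and Hoxc, at 424 and 982 bp, and group 13 is near a peak in Hoxd, at 469 bp.

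Peaks of the Hox clusters had a longer median distance from gene starts than peaks of the genome. Starts came from the promoter table for 22 Hox genes, and for the other 17 the gene border facing the higher-numbered neighbour was used. A peak centre was within 1 kb of the start of 9 Hox genes (23.1%, interval 11.1 to 39.3), against 38.4% of the 17491 protein-coding genes in the table. With 2 kb around the start in place of 1 kb, the count was 14 Hox genes (35.9%), against 39.6% of all. Of the 9 genes within 1 kb, 6 were among the 22 with a listed start (27.3%, interval 10.7 to 50.2). The genes were Hoxa4, Hoxa10, Hoxb5, Hoxc4, Hoxc11, Hoxd1, Hoxd3, Hoxd9 and Hoxd13, 4 of them in Hoxd. They were 5 of the 23 3' genes (21.7%, interval 7.46 to 43.7) and 4 of the 16 5' genes (25%, interval 7.27 to 52.4), so the 3' genes had no higher share by this measure. Seen from the peaks, the median distance to a start was 1361.5 bp inside Hox clusters and 412 bp over 11085 peaks on chromosomes with listed starts. Within 250 bp of a start were 15.0% of Hox peaks (interval 3.21 to 37.9), against 38.3% of all. Between 1 and 2 kb from a start were 5 of the 20 Hox peaks (25%, interval 8.66 to 49.1), against 2.0% of all. These 5 lay in Hoxa7, Hoxb2, Hoxb4, Hoxb7 and Hoxc10. For Hoxb2, Hoxb7 and Hoxc10 the start was the gene border, whereas distances over all peaks used listed starts alone. Of the 20 peaks, 16 lay downstream of the nearest Hox start and 4 upstream, and 19 lay in a Hox gene body. The like shares over all peaks were not counted, so these counts have no background. Where the gene border served as the start, a peak in that gene's body is downstream of it by definition. Measured to either border of the nearest protein-coding gene, 8 of 20 Hox peaks (40.0%, interval 19.1 to 63.9) were within 1 kb, against 63.3% of all peaks. With borders of genes of all kinds, 10 of the 20 (50%, interval 27.2 to 72.8) were within 1 kb, against 68.6%. The table lists fewer starts than there are genes, so distances over all peaks can be too long. A gene border can lie away from the start in use, so some Hox distances can be off as well. The comparison of Hox peaks with all peaks is therefore not between like measures.

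**Figure D4:**
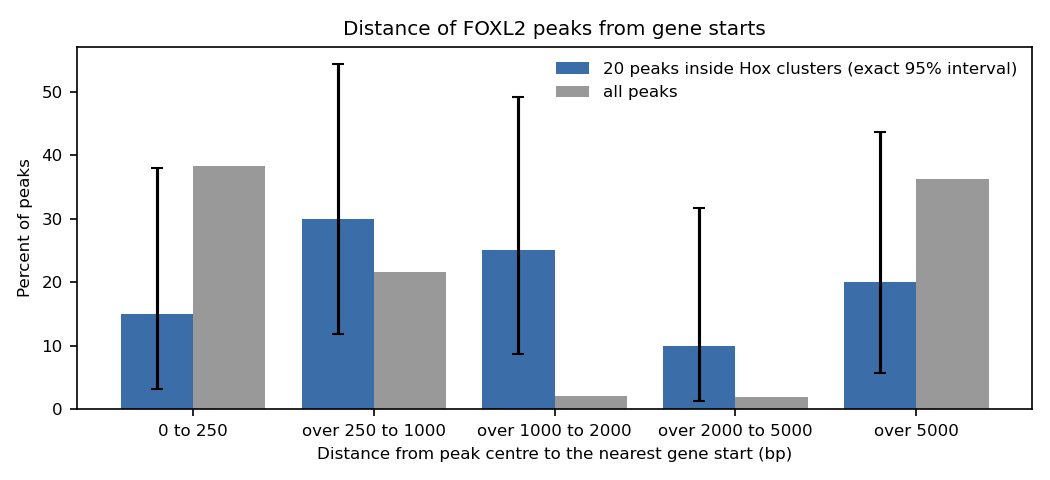
Percent of the 20 peaks inside Hox clusters (blue, exact 95% interval) and of all peaks (grey) by distance in bp from the peak centre to the nearest gene start. Hox peaks make up 15.0% within 250 bp against 38.3% of all, and 25% between 1 and 2 kb against 2.0% of all. Over 5 kb they make up 20.0%, against 36.3% of all. Starts of 17 Hox genes were gene borders, whereas all peaks were measured to listed starts.

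The 4 peaks in the 3' flanks and 3 in the 5' flanks were partly at genes that neighbour the clusters. Evx1, a homeobox gene next to Hoxa13, held the peak at chr6:52316538-52316837 in its body, 1702 bp from its border. Lnpk, which encodes an endoplasmic reticulum protein, held the peak at chr2:74578606-74578905, 193 bp from a start. Mtx2, a mitochondrial outer membrane protein gene on the other side of Hoxd, held the peak at chr2:74825818-74826117, 155 bp from its start. These 3 peaks were 55807, 89470 and 60825 bp from the nearest cluster end. Evx2, beside Hoxd13, had no peak in its body, and the Hoxd13 peak lay 7174 bp from it. Skap1, beside Hoxb1, held a peak in the part of its body outside the 100 kb flank. Beyond Hoxc4 lay the peaks at chr15:103040978-103041277 and chr15:103060261-103060560, 4271 and 23554 bp outside the cluster and both within the noncoding gene Gm30528, so that 4 peaks in all fell in that gene. The flank peak beyond Hoxb1, at chr11:96397219-96397518, was 29114 bp out, and the one beyond Hoxb13, at chr11:96177785-96178084, was 16382 bp out. Calcoco2 and Ttll6 on that side had none within 10 kb. The farthest peak taken lay 89.5 kb from a cluster, at Hoxd, and the nearest one beyond the 100 kb limit lay 118.3 kb from one, at Hoxb.

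Of the noncoding genes wholly inside the clusters, 5 of 24 long noncoding RNA genes held a peak centre, namely LOC115490409, Hoxb5os, Hoxb3os, Hoxd3os1 and Haglr. Each overlaps or neighbours a Hox gene, and positions cannot say to which gene such a peak belongs. The shares over all long noncoding RNA genes and all microRNA genes of the genome were not counted. Whether 5 of 24, or the microRNA count below, is high or low is therefore unknown. Hotair, a long noncoding RNA gene of the Hoxc cluster, lay 7086 bp from a peak. The clusters also encode microRNAs, which restrain messenger RNAs and, in the miR-10 and miR-196 families, are known to target Hox genes. Of 6 microRNA genes, which are very short, 0 held a peak. Mir10b and Mir10a were the nearest to one, at 1530 and 2887 bp, both in paralogue group 4 neighbourhoods with peaks at Hoxd4 and Hoxb4. Their mature sequences are shown because these 2 genes are the same family in different clusters. Capitals mark the seed, bases 2 to 8, which they share, and the sequences differ by U12A, counted from the 5' end of miR-10a.
miR-10a-5p: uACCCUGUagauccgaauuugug
miR-10b-5p: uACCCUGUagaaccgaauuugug
Mir196b, Mir196a-2, Mir615 and Mir196a-1 lay 4359, 5317, 12425 and 21834 bp from the nearest peak.

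Other gene lists, counted with the same 10 kb rule, stood at different levels. Of 13 other homeobox genes related to the Hox genes, 7 (53.8%, interval 25.1 to 80.8) had a peak, near the 49.6% of all genes. Gbx2, a gene of the midbrain and hindbrain boundary, had 2, Gsx1, a forebrain and spinal cord gene, had 1 peak 15 bp from its border, and Cdx2, a direct activator of Hox genes, had 1 peak 240 bp from its border. Among 6 Dlx genes, homeobox genes of forebrain and jaw, Dlx5 alone had a peak, and 0 of the 6 Iroquois genes had one, the nearest lying 25809 bp from Irx5. TALE homeobox genes, which encode DNA-binding partners of Hox proteins, had 6 of 9 (66.7%, interval 29.9 to 92.5), with 5 peaks at Meis1 and 2 each at Pknox1 and Pbx3. Known regulators of Hox clusters had 13 of 17 (76.5%, interval 50.1 to 93.2), among them the Polycomb genes Bmi1 with 4 peaks, Phc1 with 3 and Ezh2 with 3. The lists differ in gene length, and a longer gene covers more sequence under this rule. Median length was 139.22 kb for TALE genes and 31.59 kb for the regulators, against 3.74 kb for Hox genes and 17.17 kb for all genes. These lists are small and were set beside the Hox genes as counts alone.

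**Figure D5:**
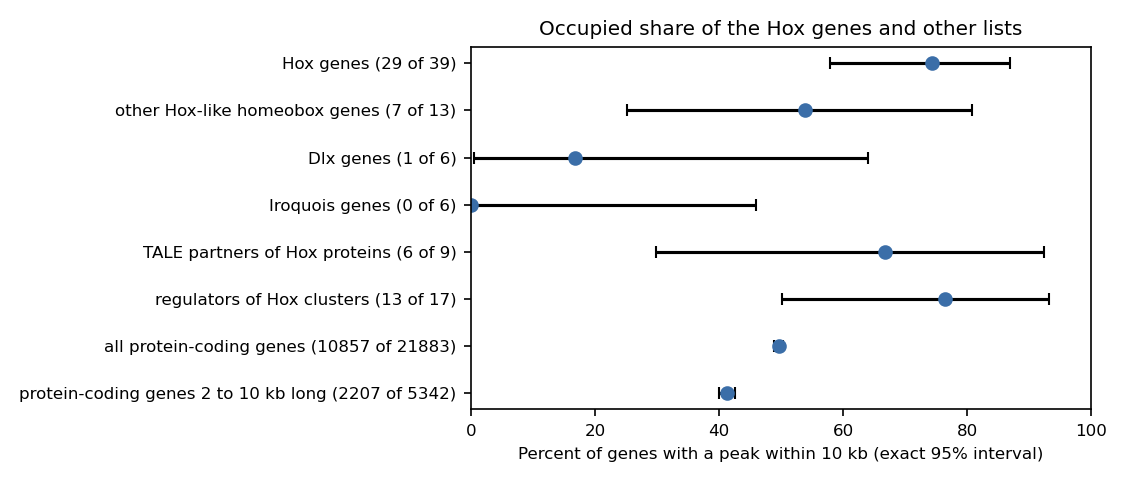
Percent of genes with a peak centre in the body or within 10 kb, with exact 95% intervals, for the Hox genes, 5 comparison lists, all protein-coding genes and those of 2 to 10 kb. Hox genes stand at 74.4%, regulators of Hox clusters at 76.5%, Iroquois genes at 0 of 6 and all genes at 49.6%.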

How the data were processed

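FOXL2 ChIP and input were sequenced from pools of E14.5 CD1 ovaries, and titles gave each sample its group and number. The authors deposited the start and end positions of peaks in bp on mm10 as 1 list for both ChIP samples, without scores or strands. Per the submitters' processing notes, Bowtie 1.2, Picard 1.110, bedtools 2.24.0 and HOMER 4.9 were used. Not given in the sources used here are their roles, the peak threshold and how replicates and input were combined, which together set the number of peaks. Each peak was 300 bp wide. Starts were made 1-based and peak centres used. Genes, promoters and microRNAs came from RefSeq tables of assembly GRCm38.p6, and the 11435 peaks on chromosomes 1 to 19, X and Y were analysed. A gene counted as occupied with a peak centre inside it or up to 10 kb from either end. All counts are descriptions beside the whole genome, computed with Python 3.11.15, pandas 2.3.3 and SciPy 1.17.1, and the counting was tested on simulated data. Hox genes and every flanking gene with a peak were named, except that 1 of the 39 Hox genes is counted but not reported here by itself, and of each comparison list up to 3 genes with the most peaks. Members and lists were chosen with earlier results of these data known. Flanks, windows, splits and starts were varied, and peak sequence was not analysed here.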

Additional observations from a re-analysis of the deposited data

How the results depend on the processing

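Of the recounts, 23 stayed within 1.5 times the count reported or within the interval of a share or density, and 5 did not. That tolerance is wide: the 29 Hox genes with a peak within 10 kb were 22 with 5 kb (56.4%, against 45.9% of all genes) and all 39 with 50 kb (against 67.5%), and the 27 peaks were 34 with 200 kb flanks. The count of 29 became 18 with a window of 1 kb (46.2%, against 42.5% of all genes) and 17 with the nearest protein-coding gene alone. The 9 Hox genes with a peak within 1 kb of a start became 14 with 2 kb (35.9%, against 39.6% of all genes). The density of 40.6 peaks per Mb became 20.9 with the 100 kb flanks included, where there are fewer genes. Peaks inside the clusters numbered 13 without the Hoxd cluster, which took away 7. Leaving clusters out and using other starts were chosen after seeing the data. No paired analysis was possible because the replicates share 1 list with no values per sample. Binding too weak for the authors' peak threshold, and differences in strength among the 20 peaks, cannot be seen in a list of positions.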

Other observations

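Some distances recurred between Hox genes, and they were picked out after their values were seen and were not tested. The peak centres in Hoxa7 and Hoxb7 lay 1486 and 1495 bp downstream of the start. Those in Hoxa7 and in the group 4 genes Hoxb4 and Hoxd4 lay 1464, 1477 and 1493 bp before the end of the gene, whereas the one in Hoxb7 lay 3064 bp before it. The 5 Hox peaks between 1 and 2 kb from a start lay in short genes, so nearness to the gene's end follows in part from gene length. Their centres lay 1464 bp before the end in Hoxa7, 800 bp in Hoxb2 and 1477 bp in Hoxb4. The distances were 3064 bp in Hoxb7 and 3865 bp in Hoxc10.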
